A study of Rattus norvegicus with 6 samples.

Results

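The nuclear-encoded oxidative phosphorylation genes examined here were 40 named subunits of respiratory complexes I to IV, cytochrome c and the ATP synthase (complex V), selected by gene name, with earlier results of these data known. They comprised 15 genes of complex I, 4 of complex II, 4 of complex III, 1 for cytochrome c, 8 of complex IV and 8 of complex V, out of 15168 genes named on the array. Of the 40 genes, 39 were matched to 44 probes, and all 44 were well above background on all 6 arrays and were tested. Atp5g3, which encodes an isoform of the ATP synthase c subunit, was not analysed here. The ATP synthase genes are called by the symbols of the member list (Atp5b for Atp5f1b, and so on).

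Brain RNA came from 6 sedentary male rats of the Wistar background, all 15 weeks of age. The 3 SPORTS rats belonged to a hyperactive mutant line, and the 3 controls were wild type. Neither the brain region nor the SPORTS mutation is given in the labels, and the labels do not state litter, housing or whether the lines were bred side by side. Each rat gave 1 one-colour Agilent array. The p-values measure the spread among these 3 samples per line.

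Oxidative phosphorylation makes ATP at the inner mitochondrial membrane. Complexes I and II pass electrons from NADH and succinate to ubiquinone, complex III passes them on to cytochrome c, and complex IV delivers them to oxygen. Complexes I, III and IV pump protons outward, and the ATP synthase lets them return while it forms ATP. Most subunits are encoded in the nucleus and imported, while a small core is encoded by mitochondrial DNA. In the brain this pathway supplies most of the ATP, and neurons spend much of it on restoring ion gradients after electrical activity.

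The sequences upstream of the 5 member genes that passed the test below are printed because these are the members on which the results turn. Each line gives the 250 bases before the annotated start, 5′ to 3′ on the strand of the gene, from RefSeq on assembly GRCr8. The windows lie at chr17:34186352-34186601 (plus strand) for Uqcrfs1, chr10:81523346-81523595 (minus) for Atp5g1, chr1:253362937-253363186 (minus) for Ndufb8, chr7:10214351-10214600 (minus) for Atp5d and chr4:80984768-80985017 (minus) for Cycs. Capitals mark exact matches, on either strand, of the motifs listed after the sequences.
Uqcrfs1: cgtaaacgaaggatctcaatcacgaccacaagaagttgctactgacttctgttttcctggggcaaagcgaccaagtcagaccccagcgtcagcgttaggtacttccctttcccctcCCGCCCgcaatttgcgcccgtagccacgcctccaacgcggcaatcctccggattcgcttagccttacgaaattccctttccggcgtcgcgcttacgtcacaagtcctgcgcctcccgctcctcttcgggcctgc
Atp5g1: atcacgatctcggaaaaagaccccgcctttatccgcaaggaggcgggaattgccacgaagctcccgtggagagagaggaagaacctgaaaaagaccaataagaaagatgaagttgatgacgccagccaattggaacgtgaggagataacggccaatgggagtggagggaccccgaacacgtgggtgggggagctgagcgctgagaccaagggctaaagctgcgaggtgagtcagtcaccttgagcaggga
Ndufb8: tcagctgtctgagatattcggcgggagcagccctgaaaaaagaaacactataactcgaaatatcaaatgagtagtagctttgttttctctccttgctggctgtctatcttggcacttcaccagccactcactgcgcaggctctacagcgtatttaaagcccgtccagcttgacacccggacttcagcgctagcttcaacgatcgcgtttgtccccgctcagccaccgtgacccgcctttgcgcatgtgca
Atp5d: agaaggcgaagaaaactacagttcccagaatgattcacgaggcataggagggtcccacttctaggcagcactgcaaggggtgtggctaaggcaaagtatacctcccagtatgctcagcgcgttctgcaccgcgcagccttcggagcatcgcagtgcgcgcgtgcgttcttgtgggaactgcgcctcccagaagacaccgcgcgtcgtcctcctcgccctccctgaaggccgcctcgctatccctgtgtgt
Cycs: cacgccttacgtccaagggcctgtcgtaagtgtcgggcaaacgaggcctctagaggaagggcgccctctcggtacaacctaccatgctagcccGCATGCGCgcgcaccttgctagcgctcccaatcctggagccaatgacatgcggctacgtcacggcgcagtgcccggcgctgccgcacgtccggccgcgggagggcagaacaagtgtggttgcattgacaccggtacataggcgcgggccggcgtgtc

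In Cycs the capitals mark the core of the site of NRF1, a transcription factor known for nuclear respiratory genes, and in Uqcrfs1 they mark an Sp1 box on the opposite strand. The motifs searched were GCGCATGC (NRF1 core), CCGGAAGT and the shorter CGGAAG it contains (ETS factors such as GABPA), TGACGTCA (cyclic AMP response element), AAGATGGCG (YY1) and GGGCGG (Sp1), in windows of 300 bases that also hold the 50 bases after the start. Of the 40 members, 37 had a promoter in the RefSeq table (all but Uqcrb, Cox6a1 and Cox6c). CGGAAG was present in 21 of these 37 (56.8%), against 16.6% of all 33469 promoters and 29.0% of the 9473 promoters of tested genes. AAGATGGCG was present in 6 (16.2%), against 1.73% and 3.14%. GCGCATGC was present in 4 (10.8%), against 2.47% and 4.62%, and CCGGAAGT also in 4 (10.8%), against 3.81% and 7.72%. TGACGTCA was present in 3 (8.11%), against 1.83% and 3.13%. GGGCGG was present in 13 (35.1%), against 33.1% and 59.4%. Among the 5 genes above, Uqcrfs1 also had CGGAAG and Ndufb8 had AAGATGGCG within the 50 bases after the start, which are not printed. The windows of Atp5d and Atp5g1 were among 9 member windows with no match of any of the 6 motifs. A match is a description of letters and not a binding site.

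The arrays gave between 20323 and 23261 probes well above background, with no saturated spot, and their number limits the precision of every value. Signals are normalised log2 values in which 0 is the 75th percentile of the array. Differences are SPORTS minus wild type on the log2 scale, with the SE of the fit. Across probes, arrays correlated at 0.995 to 0.997 within a line and at 0.987 to 0.991 between lines. A gene with 2 probes was represented by the brighter one. A gene was called when its limma p, adjusted by Benjamini-Hochberg over all 20658 tested probes, was below 0.05. All SPORTS arrays lay in the second row of the slide together with wild type 3, while wild type 1 and 2 lay in the first row. Values with slide row as a block are therefore given beside those results whose call they change. In that fit every difference is wild type 3 against the 3 SPORTS arrays, while wild type 1 and 2 only inform the spread. An effect of the row and a deviation of wild type 3 cannot be told apart.

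Expression of the pathway differed little between the lines. Of 39 members, 4 fell in SPORTS (Uqcrfs1, Atp5g1, Ndufb8 and Atp5d) and 1 rose (Cycs), which is 12.8% of the members, against 24.3% of all 11033 genes tested. In the upward direction the share was 2.56% of members against 12.9% of all genes, and in the downward direction 10.3% against 11.4%. By probe, 1 rose and 4 fell of 44, against 21.1% called of all probes. The largest change of a member was 1.35-fold, in Uqcrfs1. None of the 39 members differed by 1.5-fold or more, a size reached by 6.25% of all genes. The median size of the difference was 0.055 in the members and 0.110 in all genes, and the median SE was 0.0382 and 0.0530. These comparisons were not matched for signal, and the median member probe was brighter than 93.4% of tested probes. The signed median was -0.0061 in the members and 0.0070 in all genes.

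**Figure D1:**
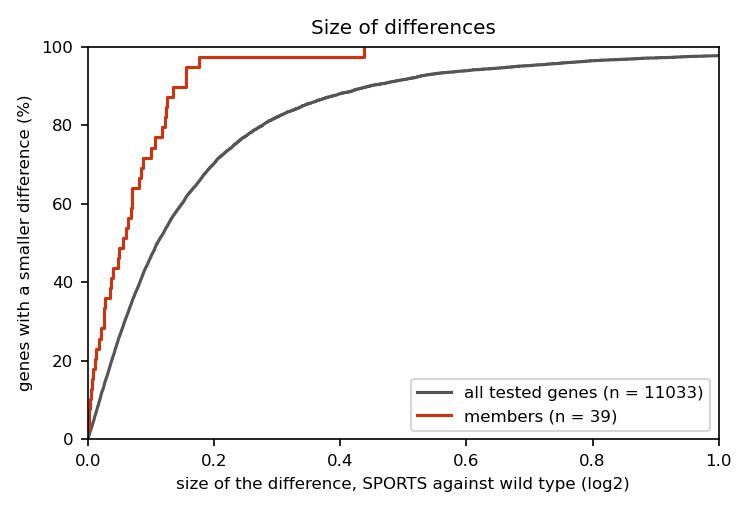
Cumulative share of genes (vertical axis, %) with a difference smaller than the log2 value on the horizontal axis, regardless of direction. The red line holds the 39 members and the grey line all 11033 tested genes; the red line rises first, with medians of 0.055 and 0.110, and ends at Uqcrfs1.

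With slide row as a block, 1 member (Uqcrfs1) was called, against 8.34% of all genes, and the median of the members was -0.05. The split of the calls also moved with the scaling. When the median of each array was subtracted, which shifts every gene alike, no member rose and 8 fell, while of all genes 1213 rose and 1600 fell (1424 and 1257 in the main scaling). After quantile normalisation 1 member rose and 2 fell, against 1417 and 1354 of all genes. The 3 arrays of each line did not overlap for 18 of 39 members (46.2%), 5 higher and 13 lower in SPORTS, against 47.0% of all genes. An unadjusted p below 0.05 was found for 10 of 39 members, against 39.3% of all genes.

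For the 34 members that were not called, the main fit gave an interval for each difference. Their differences ran from -0.16 (Atp5b) to 0.09 (Sdhc), and the smallest adjusted p among them was 0.0558. The 95% interval lay within 1.2-fold in either direction (0.263 on the log2 scale) for 32 of the 34, the others being Cox7c and Atp5b. The lowest bound was -0.27 for Cox7c and the highest 0.20 for Uqcrc2. These intervals hold for each gene on its own, in the main scaling and without slide row. With slide row as a block the SE of Cox7c was 0.0834, against 0.0587 in the main fit. The SD within a line was between 0.0028 and 0.0930 over the member probes, with a median of 0.0335. These probes were bright: the median member probe was brighter than 93.4% of tested probes.

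**Figure D2:**
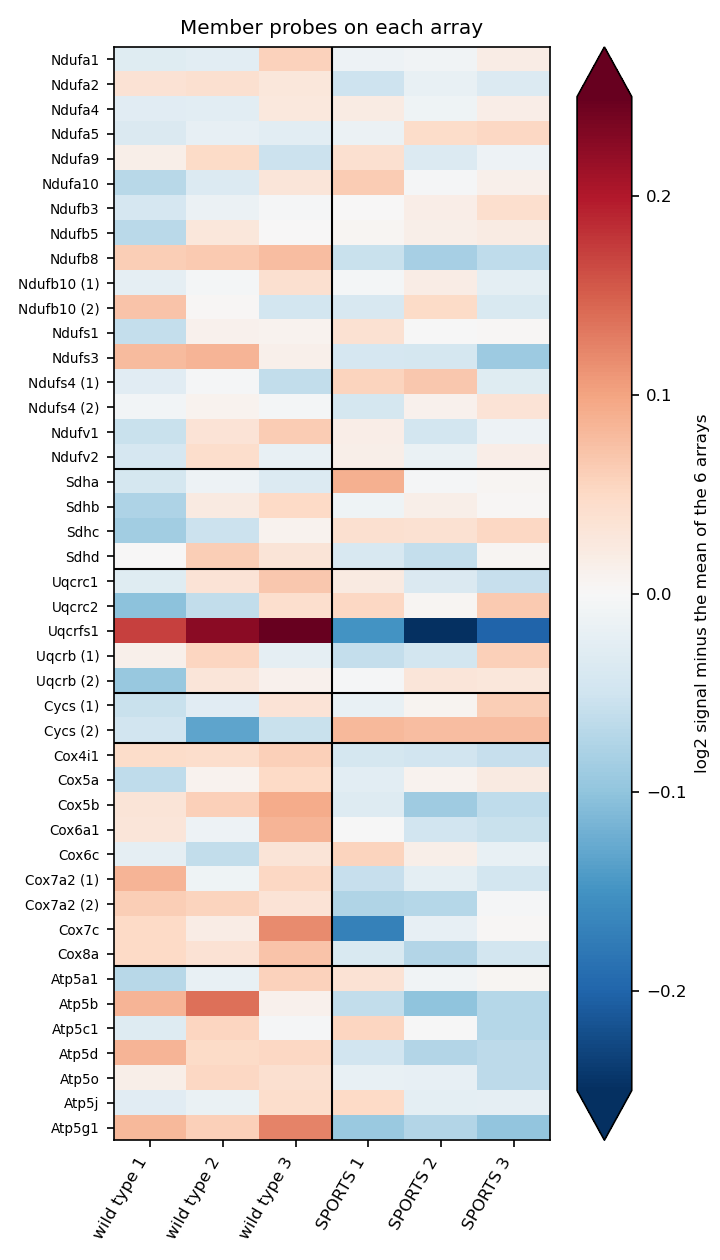
Signal of each of the 44 member probes on each array as the deviation from the mean of that probe over the 6 arrays (log2, colour scale), with black lines between complexes and between the lines of rats. Uqcrfs1 stands out as dark red in all wild type and dark blue in all SPORTS arrays; most other rows are pale.

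Complex I, NADH dehydrogenase, is the entry point for electrons from NADH. Of its 15 members, 1 fell and none rose, against 24.3% called of all genes. Ndufb8, an accessory subunit of the membrane arm, had signals of 5.56, 5.56 and 5.58 in wild type and 5.44, 5.42 and 5.44 in SPORTS. Every SPORTS array was below every wild type array. The difference was -0.13 ± 0.0309 (1.1-fold lower, 95% interval -0.21 to -0.06, adjusted p = 0.031). The call was lost with slide row as a block, at -0.14 (adjusted p = 0.145), or when any 1 of the 6 arrays was left out. It was also lost after quantile normalisation and without a filter on dim probes. The difference stayed between -0.17 and -0.13 in the alternatives. With 1 array left out, 12.4 to 17.5% of all genes were called, against 24.3% in the main fit.

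None of the member genes for core subunits of complex I was called; the core subunits Ndufs7 and Ndufs8, which are no members, are described further on. Ndufs1, which holds iron-sulfur clusters, differed by 0.03 (adjusted p = 0.668), Ndufv1, which binds NADH and flavin, by -0.03 (adjusted p = 0.712), and Ndufv2 by 0.01 (adjusted p = 0.875). Ndufs3, a core subunit of the peripheral arm, came nearest to the threshold. It had mean signals of 2.61 ± 0.0396 (SD, n = 3) in wild type and 2.49 ± 0.0269 (SD, n = 3) in SPORTS. Its groups did not overlap, but its difference of -0.12 ± 0.0377 did not pass (adjusted p = 0.0805) and was -0.07 with slide row as a block. The probes of Ndufs4, an accessory subunit whose loss is known to cause Leigh syndrome, differed by 0.00 and 0.06.

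The accessory subunits had differences on both sides of 0. Ndufa2 was lower by -0.07 and Ndufa5 and Ndufb3 higher by 0.05 and 0.04, with no overlap between the groups but adjusted p-values of 0.176, 0.327 and 0.457. Ndufa1, needed for assembly of the membrane arm, had the smallest difference of the complex. It read 4.18, 4.18 and 4.26 in wild type and 4.19, 4.20 and 4.22 in SPORTS, so that the groups overlapped fully. Ndufa4, grouped by name with complex I but known as a subunit of complex IV, differed by 0.02, Ndufa9 by -0.01, Ndufa10 by 0.05 and Ndufb5 by 0.03, and both probes of Ndufb10 differed by -0.01 and -0.02. Over the complex, 8 members were above 0 and 7 below, with a median of 0.00.

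Complex II, succinate dehydrogenase, is shared with the citric acid cycle and is encoded by nuclear genes alone. None of its 4 members was called. Sdhc, a membrane anchor, had the largest difference, with signals of 1.96, 1.99 and 2.06 in wild type and 2.09, 2.09 and 2.10 in SPORTS. These groups did not overlap, but the difference of 0.09 ± 0.0381 did not pass (adjusted p = 0.17) and was 0.03 with slide row as a block. Sdha, the flavoprotein that oxidises succinate, differed by 0.06 (adjusted p = 0.34), and Sdhd, the other anchor, by -0.06 (adjusted p = 0.289). Sdhb, the iron-sulfur subunit, read 2.46, 2.55 and 2.58 in wild type and 2.52, 2.55 and 2.54 in SPORTS. All SPORTS values of Sdhb lay inside the wild type range.

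Complex III, the cytochrome bc1 complex, held the largest change among the members. Uqcrfs1, the Rieske iron-sulfur protein that takes electrons from ubiquinol, had signals of 2.83, 2.88 and 2.92 in wild type and 2.51, 2.35 and 2.46 in SPORTS. The groups were well apart, with means of 2.88 ± 0.0438 (SD, n = 3) and 2.44 ± 0.0790 (SD, n = 3). The difference was -0.44 ± 0.0525, or 1.35-fold lower in SPORTS (95% interval -0.57 to -0.31, adjusted p = 0.00404). With slide row as a block it was -0.48 (adjusted p = 0.0336), and the call held in 16 of the 17 alternatives that kept its threshold. It was lost with the second slide row alone, where wild type 3 stands against the 3 SPORTS arrays (adjusted p = 0.0612, same difference as with the block). Among the alternatives, the deposited table only repeats the main values, because the scaling removes its factor per array. Uqcrfs1 was measured by 1 probe.

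No other subunit of complex III was called. Uqcrc1 and Uqcrc2, the core proteins that face the matrix, differed by -0.05 (adjusted p = 0.488) and 0.08 (adjusted p = 0.306), the latter -0.0023 with slide row as a block. The brighter probe of Uqcrb, a small subunit near the ubiquinone site, read 4.32, 4.45 and 4.43 in wild type and 4.42, 4.45 and 4.45 in SPORTS, a difference of 0.04 (adjusted p = 0.613). Its other probe differed by -0.03 (adjusted p = 0.703). The fall of Uqcrfs1 was thus not shared by the 3 other members of its complex, whose differences ran from -0.05 to 0.08; the difference between genes was not tested.

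Cytochrome c, the soluble carrier between complexes III and IV and a trigger of apoptosis when released, is encoded in the soma by Cycs, the only member that rose. Its brighter probe read 4.40, 4.32 and 4.39 in wild type and 4.53, 4.53 and 4.53 in SPORTS. The SPORTS arrays were almost equal and all above wild type. The difference was 0.16 ± 0.0373 (1.11-fold higher, 95% interval 0.06 to 0.25, adjusted p = 0.0349). The other probe of Cycs read 2.59, 2.62 and 2.68 in wild type and 2.63, 2.65 and 2.71 in SPORTS, with overlapping groups and a difference of 0.03 ± 0.0420 (adjusted p = 0.63). The 2 probes thus differed in their call. The call of the brighter probe was also lost with slide row as a block (0.13, adjusted p = 0.224), with the median of each array subtracted, and when any 1 array was left out. It was lost without a filter on dim probes as well. With the mean of its 2 probes, Cycs differed by 0.095 and was not called.

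**Figure D3:**
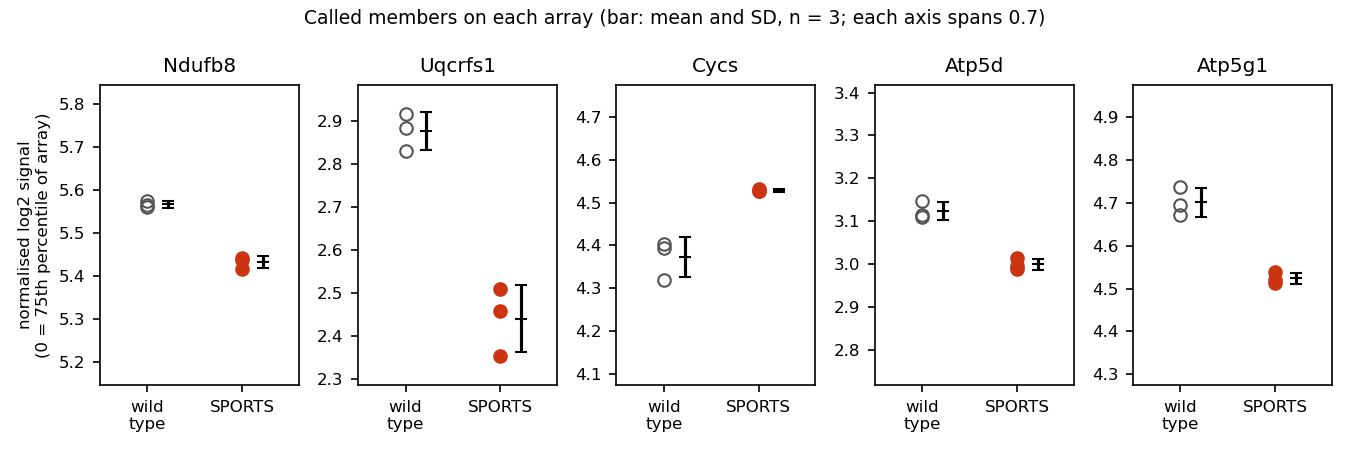
Normalised log2 signal of the 5 called members on each array, wild type as open grey circles and SPORTS as red dots, with the mean and SD (n = 3) beside them; each vertical axis spans the same log2 range. Uqcrfs1 has the widest gap, from 2.88 to 2.44, and the other 4 genes differ by 0.12 to 0.18.

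Complex IV, cytochrome c oxidase, reduces oxygen to water. None of its 8 members was called. Of the 8, 6 were below 0, and the groups did not overlap for 5, all lower in SPORTS, against 47.0% of all genes in either direction. The share of all genes without overlap in the downward direction alone was not counted. Cox5b, a nuclear subunit on the matrix side, had a difference of -0.12 ± 0.0358 (adjusted p = 0.0639), Cox4i1, the isoform 1 of the subunit through which ATP is known to inhibit the enzyme, of -0.10 ± 0.0304 (adjusted p = 0.0716), and Cox8a, a small membrane subunit, of -0.11 ± 0.0324 (adjusted p = 0.0716). All 3 passed in the alternatives with the median or the percentile over distinct probes subtracted, or with a trended variance. Cox7a2 had 2 probes, which differed by -0.08 and -0.10 (adjusted p = 0.184 and 0.109) and had no overlap between groups in either.

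Cox7c, another small subunit, had the largest difference of the complex but also the widest error. It read 1.40, 1.37 and 1.47 in wild type and 1.18, 1.33 and 1.35 in SPORTS, with SPORTS 1 the lowest. Its difference of -0.12 ± 0.0587 did not pass (adjusted p = 0.197) and was -0.07 without SPORTS 1. Cox6a1 differed by -0.07 (adjusted p = 0.293) and Cox6c by 0.03 (adjusted p = 0.608). Cox5a, which pairs with Cox5b in name but is a separate subunit, had the smallest difference. It read 3.92, 3.99 and 4.03 in wild type and 3.95, 3.99 and 4.0 in SPORTS, all inside the wild type range.

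The mean signal of the 8 complex IV genes was 4.73 to 4.79 on the wild type arrays and 4.68 to 4.69 on the SPORTS arrays. The median difference was -0.09, and -0.11 with slide row as a block. It was below 0 in every alternative, between -0.12 and -0.08. These 8 genes share the same 6 arrays and are no replicates of each other.

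Complex V, the ATP synthase, had 2 of 7 tested members lower and none higher, against 24.3% called of all genes. Atp5g1, 1 of the genes for the c subunit of the membrane rotor, read 4.69, 4.67 and 4.74 in wild type and 4.52, 4.54 and 4.51 in SPORTS. All SPORTS arrays lay below all wild type arrays, with a difference of -0.18 ± 0.0344 (1.13-fold lower, 95% interval -0.26 to -0.09, adjusted p = 0.0188). With slide row as a block it was -0.21 but did not pass (adjusted p = 0.0678). The call was also lost without a filter on dim probes, and when any 1 array other than wild type 2 was left out.

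Atp5d, the delta subunit of the central stalk, read 3.15, 3.11 and 3.11 in wild type and 3.01, 2.99 and 3.0 in SPORTS. These groups were also apart, and the difference was -0.12 ± 0.0321 (1.09-fold lower, 95% interval -0.20 to -0.04, adjusted p = 0.0441). With the row block it was -0.11 (adjusted p = 0.231), and the call was lost when any 1 array was left out. The call of Atp5d was also lost after quantile normalisation and without a filter on dim probes. Atp5b, the catalytic beta subunit, had nearly the same difference as Atp5g1 but a larger error, -0.16 ± 0.0437 (adjusted p = 0.0558), with no overlap between the groups. It was -0.09 with slide row as a block. Atp5b passed with the median of each array subtracted, with normexp, with a trended variance, with the mean of a gene's probes and without wild type 3. It passed in no other alternative.

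The alpha subunit, Atp5a1, differed by 0.02 (adjusted p = 0.781) and the gamma subunit, Atp5c1, by -0.01 (adjusted p = 0.883). Atp5o, the subunit that confers oligomycin sensitivity in the peripheral stalk, differed by -0.07 (adjusted p = 0.206) with no overlap between the groups. Atp5j, coupling factor 6 of the same stalk, had the smallest difference, reading 3.70, 3.71 and 3.77 in wild type and 3.77, 3.70 and 3.70 in SPORTS. The median over the 7 genes was -0.07, and -0.08 with slide row as a block, and it lay between -0.10 and -0.05 in the alternatives. Their mean signal was 4.14 to 4.17 on wild type and 4.07 to 4.11 on SPORTS arrays. In contrast, the medians of complexes I, II and III (0.00, 0.03 and -0.01) changed sign among the alternatives.

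**Figure D4:**
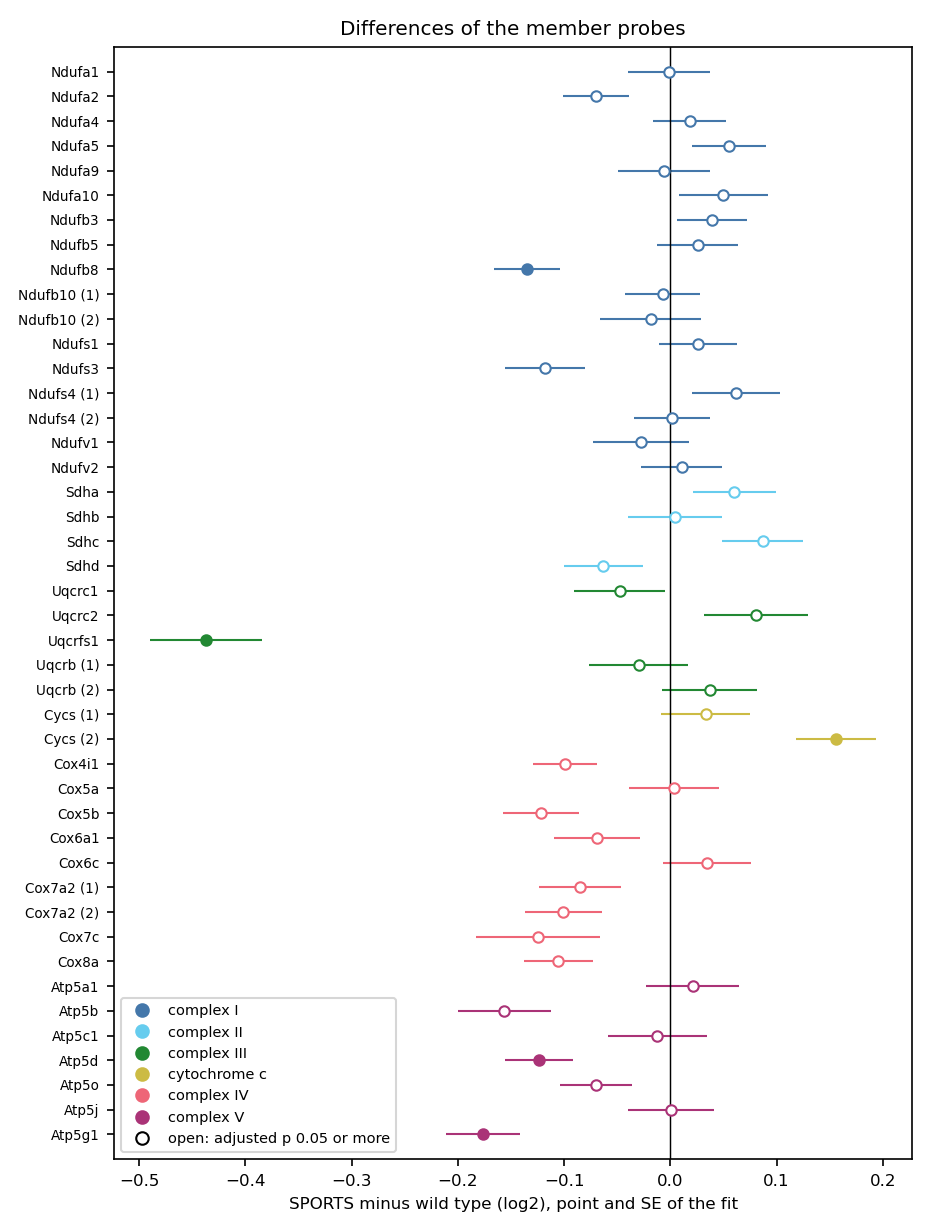
Difference of each member probe (SPORTS minus wild type, log2) with the SE of the fit, coloured by complex; filled points passed the adjusted p of 0.05 and open points did not. Nearly all points lie within 0.18 of 0, Uqcrfs1 at -0.44 is the exception, and the complex IV and complex V probes lie mostly left of the line at 0.

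The other nuclear subunits of complexes I and III to V were taken as a second list of 40 genes, 31 of them tested. Of these, 2 rose and 1 fell, with a median of -0.02, against 24.3% called of all genes. Ndufs7, a core subunit that holds the iron-sulfur cluster next to ubiquinone, had signals of 2.68, 2.79 and 2.74 in wild type and 3.20, 3.17 and 3.24 in SPORTS. The groups were far apart, with a difference of 0.46 ± 0.0426 (1.38-fold higher, adjusted p = 0.00179; 0.46 and 0.0253 with the block). It was called in 18 of 18 alternatives. Ndufa12, an accessory subunit of the peripheral arm, fell, with a difference of -0.25 ± 0.0415 (adjusted p = 0.0114; -0.29 and 0.0497 with the block). Ndufs8, which holds iron-sulfur clusters close to that of Ndufs7, rose by 0.13 ± 0.0342 (adjusted p = 0.0437), but not with the block (adjusted p = 0.214).

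None of the 4, 3 and 8 further subunits tested in complexes III, IV and V was called. Those with the smallest p were Uqcr11 (-0.09) and Uqcrh (0.04) in complex III, Cox7a2l (-0.06) and Cox6b1 (-0.06) in complex IV, and Usmg5 (-0.08) and Atp5e (-0.05) in complex V. Differences above 0 were found in 2 of the 4, none of the 3 and 3 of the 8, with medians of 0.0017, -0.06 and -0.02. Of 9 isoforms known from muscle, lung, testis or liver, 4 were tested and none was called. Cox4i2, the isoform of Cox4i1 known from lung, differed by -0.13 (adjusted p = 0.108) and Cox6a2, the heart and muscle isoform of Cox6a1, by 0.13 (adjusted p = 0.142). The 13 mitochondrially encoded subunits were not analysed here.

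Assembly factors build the complexes and are not part of them. Of 45 listed, 35 were tested: 4 rose and 5 fell, with a median of -0.01, against 24.3% called of all genes. Pet100, a factor for complex IV, read 1.29, 1.35 and 1.41 in wild type and 0.86, 0.87 and 0.88 in SPORTS, lower by -0.48 ± 0.0421 (1.39-fold, adjusted p = 0.00153). Timmdc1, a factor for complex I, was lower by -0.34 ± 0.0356 (adjusted p = 0.00273). Both were called in 18 of 18 alternatives. Sco1, which brings copper to complex IV, was higher by 0.35 ± 0.0850 (adjusted p = 0.0359), but by 0.17 with slide row as a block (adjusted p = 0.185).

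Among these factors, 3 are known to act on the Rieske protein encoded by Uqcrfs1, and they were picked out after their values were seen. Ttc19, which clears fragments of the Rieske protein from complex III, read -0.89, -0.94 and -0.86 in wild type and -1.28, -1.31 and -1.34 in SPORTS. All SPORTS arrays were lower, by -0.41 ± 0.0379 (1.33-fold, adjusted p = 0.00177; -0.45 and 0.0167 with the block), and the call held in 18 of 18 alternatives. Lyrm7, a chaperone that holds the Rieske protein in the matrix, read -1.42, -1.32 and -1.35 in wild type and -1.13, -1.15 and -1.15 in SPORTS. It rose by 0.22 ± 0.0392 (adjusted p = 0.0134), but not with the block (adjusted p = 0.112). Bcs1l, which moves the Rieske protein through the membrane, differed by -0.10 (adjusted p = 0.226).

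The remaining called factors were Sdhaf2, which attaches flavin to Sdha (-0.30 ± 0.0452, adjusted p = 0.00821), Coa5 for complex IV (-0.17, adjusted p = 0.0397), Taco1, a translational activator of a mitochondrially encoded subunit of complex IV (0.29, adjusted p = 0.0337), and Tmem126b for complex I (0.15, adjusted p = 0.0352). Of these, none passed with slide row as a block (Sdhaf2 -0.33, adjusted p = 0.0546).

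**Figure D5:**
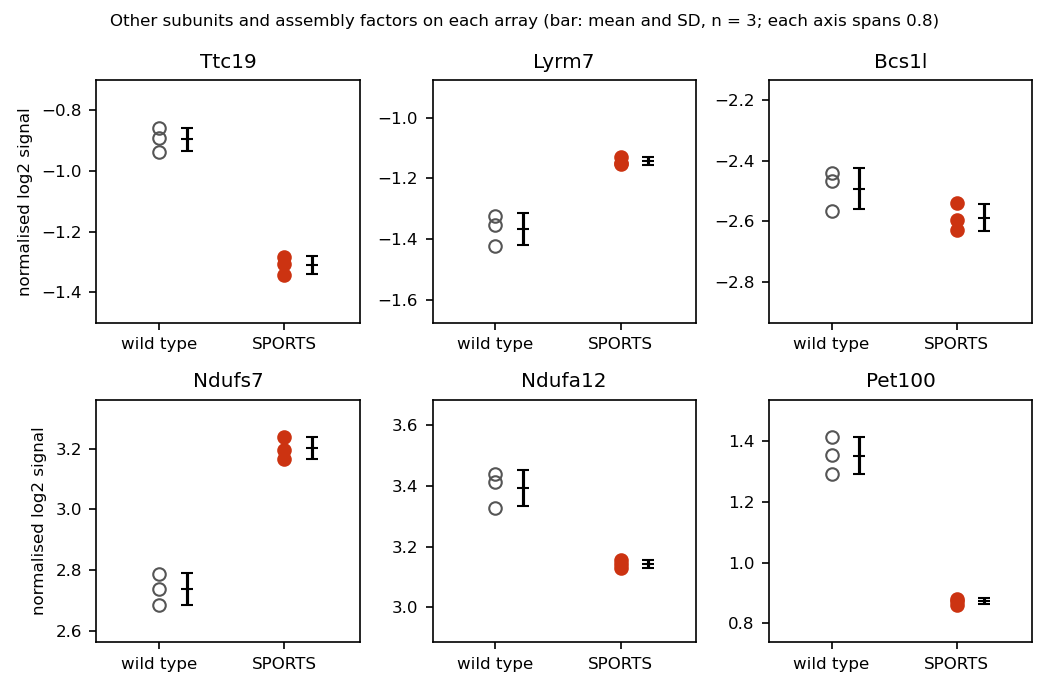
Normalised log2 signal on each array of 6 genes that are no members, wild type as open grey circles and SPORTS as red dots, with the mean and SD (n = 3); each vertical axis spans the same log2 range. Ttc19, Ndufa12 and Pet100 were lower, Ndufs7 and Lyrm7 higher, and Bcs1l did not pass the test.

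Regulators of mitochondrial biogenesis had 1 gene higher and 1 lower of 20 tested, against 24.3% called of all genes. Polg2, the accessory subunit of the mitochondrial DNA polymerase, rose by 0.30 ± 0.0362 (adjusted p = 0.00406; 0.30 and 0.0450 with the block). Ppargc1b, a coactivator related to Ppargc1a, fell by 0.19 ± 0.0481 (adjusted p = 0.0389), but not with the block (adjusted p = 0.159). The best known regulators were not called: the coactivator Ppargc1a differed by 0.01, Tfam, which packs and transcribes mitochondrial DNA, by 0.02, the transcription factor Gabpa by 0.04 and Nrf1 by 0.20 (adjusted p = 0.939, 0.812, 0.424 and 0.0945). The signs of Ppargc1a, Tfam and Gabpa changed in some alternatives. Of 18 carriers tested, 1 fell, the oxoglutarate carrier Slc25a11 (-0.12 ± 0.0317, adjusted p = 0.0463, not with the block, adjusted p = 0.225).

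Markers of cell types and regions also differed between these arrays. Fewer cells of a type cannot be told apart from less RNA per cell, or from a difference in the part of the brain taken. The labels do not give that part. The counts below stand beside 24.3% called of all genes, and 8.34% with slide row as a block. All 11 striatal markers fell, with a median of -1.86, and their mean signal was 0.76 to 0.95 on the wild type arrays against -1.19 to -0.91 on those of SPORTS. Of 8 meningeal and fibroblast markers 7 rose and 1 fell (means of -1.01 to -0.85 against -0.48 to -0.23, here and below first for wild type and then for SPORTS), and of 9 astrocyte markers 3 rose and none fell (2.58 to 2.67, 2.77 to 2.83). Pan-neuronal markers had 2 higher and 2 lower of 9 (2.82 to 2.90, 2.82 to 2.86), oligodendrocyte markers 2 higher of 10 (2.17 to 2.26, 2.25 to 2.33), microglia markers 1 lower of 10 (0.10 to 0.21, 0.01 to 0.12), endothelial and mural markers 1 higher and 1 lower of 9 (-1.71 to -1.56, -1.64 to -1.61), and blood markers 2 higher of 6 (2.01 to 2.21, 1.89 to 2.51). Of 7 cerebellar markers 1 rose, and SPORTS 1 stood apart (-1.24, against -2.81 to -2.23 on the other 5 arrays), as it did for the 6 choroid plexus markers, of which none was called (-1.78, against -0.72 to -0.49). With slide row as a block, all 11 striatal markers, 5 meningeal markers higher and 1 lower, 1 microglia and 1 endothelial marker lower and 1 blood marker higher were called, and no astrocyte, pan-neuronal, oligodendrocyte or cerebellar marker. The neuronal markers had signal on all arrays. The part of these markers in the differences of the members was not tested. Of the members only Uqcrfs1 was called without SPORTS 1, as it was also without wild type 1, SPORTS 2 or SPORTS 3.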

How the data were processed

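Brain total RNA of 6 rats (3 SPORTS, 3 wild type) was labelled with Cy3 and read on 1 slide. Per the file headers, Agilent Feature Extraction 10.10.1.1 (also in the submitters' processing notes) made the deposited intensity values, subtracting background and leaving arrays unnormalised against each other. The series-wide values equal these intensities times a factor per array between 1.38 and 1.47, whose choice by the authors is not stated in the labels or headers.

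From the 58717 non-control spots, outlier-flagged spots were left out, spots of a probe averaged as log2 values, and the 75th percentile of each array (processed signal 1530 to 1628) subtracted. Testing required a share above 0.5 of the spots of a probe to be well above background on every array of 1 line or both. The lines were compared with limma 3.58.1 in R 4.3.3 (two-sided, moderated, Benjamini-Hochberg; data.table in version 1.17.8 to load files). Symbols came from unversioned RefSeq accessions, which named 18005 of 30367 probes. No probe coordinates are given, because the array design and the gene list use different builds.

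The members and lists were chosen with earlier results of these data known. All members could be named, with array values for called members and, per complex, for the largest and smallest differences. From other lists the rule took up to 4 called genes with the largest differences, or 2 with the smallest p where none was called. Bcs1l, Coa5, Gabpa, Lyrm7, Nrf1, Ppargc1a, Sdhaf2, Taco1, Tfam and Tmem126b were named after their values were seen. The procedure was tested on simulated data. Alternatives were other scalings, background correction (normexp, offset 50), filters, variance models, probe summaries, slide row and leaving out each array; the percentile over distinct probes was added after seeing the data.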

Additional observations from a re-analysis of the deposited data

How the results depend on the processing

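Over the member genes, 1 rose and 4 fell. None rose and 8 fell with the median of each array subtracted, 1 and 7 with the percentile over distinct probes (chosen after seeing the data), 1 and 2 after quantile normalisation, 1 and 6 with normexp, 1 and 9 (10 probes) with a trended and robust variance, 0 and 6 with the mean of a gene's probes, 0 and 1 without a filter on dim probes, 0 and 1 with slide row as a block, 0 and 0 in slide row 2 alone (limma, 4 with an unadjusted p under 0.05), and 0 and 0 with a threshold of 1.5-fold. Leaving out 1 array gave 0 higher and 1 to 2 lower, by probe and by gene, and a median of -0.028 to -3.7e-05. The share of all genes called also moved. It was 24.3% in the main fit and 24 to 28.8% with the other scalings, normexp, the trended variance and the probe mean. It was 9.51% without the filter, 8.34% with the block and 12.4 to 17.5% with 1 array left out. The median of the members was -0.048 with the block and in slide row 2 alone. Uqcrfs1 was in every set of calls except slide row 2 alone and the 1.5-fold threshold. With the deposited table, a filter on all 6 arrays or outlier spots kept, the same 5 genes were called. The deposited table could give no other result, because the scaling removes its factor per array. It therefore adds nothing to the counts of alternatives. The filter on all 6 arrays kept every member probe, so it could act only through the other probes. The slide as a block was not run, because all arrays were on 1 slide. No paired analysis was possible because the lines share fewer than 2 numbers in the labels (wild type 3 and SPORTS 1 have 1 number in common).

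Among 62 genes (the 12 members with array values and genes of other lists), signs changed in 10 with differences near 0 or a wide spread between arrays; the cause was not tested. Ndufa1 was 0.012 after quantile normalisation, 0.000887 with normexp and -0.016 to 0.027 when 1 array was left out. Sdhb was -0.027 with the median, -0.011 with distinct probes, -0.018 with normexp, -0.048 with the block and in row 2, and -0.034 to 0.030 with 1 array left out. Cox5a was -0.028, -0.011 and -0.048 with the median, distinct probes and block (and row 2), and -0.028 to 0.029 with 1 array left out; Atp5j was -0.031, -0.014 and -0.044, and -0.023 to 0.023. Ppargc1a was -0.010 after quantile normalisation, -0.025, -0.00866 and -0.00709 with the median, distinct probes and normexp, and -0.018 to 0.039 with 1 array left out. Tfam was -0.013 with the median, -0.017 with the block and in row 2, and -0.011 to 0.045 with 1 array left out. With 1 array left out, Uqcrb ranged from -0.00135 to 0.061 and Ttr, a choroid plexus marker, from -0.54 to 0.00452. Uqcrh was -0.036 with the block and in row 2, and Gabpa -0.031 with the mean of its probes. Over these 62 genes, 912 values kept their direction and side of the threshold, 156 lost and 4 gained a call, and 41 changed sign. Of the other 27 members, none of them called, 431 values kept both, 17 gained a call (in Cox4i1, Cox5b, Cox8a, Atp5b and Ndufs3) and 38 changed sign, in 12 genes with differences of at most 0.081.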

Other observations

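Neighbouring genes were looked at after the values were seen. By gene order in the RefSeq list, with 5 tested genes on each side, 1 of the 10 neighbours of Uqcrfs1 was called (Agtr1a, lower), 2 of 10 of Ndufb8, 3 of 10 of Atp5d and 4 of 10 each of Atp5g1 and Cycs, against 24.3% of all genes. Atp5d and Ndufs7 were among each other's neighbours, and the former fell while the latter rose. Of the 10 neighbours each of Ndufs7, Ttc19 and Pet100, 3 were called.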
